A study of Homo sapiens with 9 samples.

Results

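The genes described here are 4 members of the oligoadenylate synthetase family, OAS1, OAS2, OAS3 and OASL, and ABCE1, the inhibitor of RNase L. They were taken by gene symbol from a table of FPKM (fragments counted on a gene, divided by its length in kilobases and by the library's size) and are 5 of its 22295 entries, of which 19932 carry a gene symbol and 2363 are assembled loci. They were selected on their role and with their FPKM in all 3 groups known, so these levels and their differences are given as a description without a test. All 5 passed the filter on low values, a mean of at least 0.1 FPKM over the libraries. The data were 9 RNA-seq libraries of total RNA from U251, an established human glioblastoma cell line. The sh-Luci-3d group was infected for 3 days with a control lentivirus carrying a short hairpin RNA against luciferase. The sh-Ptbp1-3d and sh-Ptbp1-7d groups were infected for 3 and 7 days with a lentivirus carrying a hairpin RNA against PTBP1, an RNA-binding repressor of neuronal exons. Each group held 3 libraries. Per the study's methods, all cells were moved after infection to a neuronal induction medium with forskolin and dorsomorphin. No sh-Luci library of day 7 was analysed here, so the PTBP1 hairpin and the added days of infection and of this medium cannot be told apart in any difference between day 7 and day 3. The labels do not say that the 3 libraries of a group came from separate cultures, so p-values measure only the spread between these libraries.

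Double-stranded RNA, as many viruses make it, activates OAS1, OAS2 and OAS3, which join ATP into short chains called oligoadenylates. These chains bind RNase L, which pairs up and cuts single-stranded RNA of the virus and of the cell, so that protein synthesis stops. OASL lacks this synthetase activity, carries ubiquitin-like domains and acts on the RNA sensor RIG-I. The OAS genes are well-known targets of interferon, through the factor ISGF3, which holds STAT2 and IRF9. ABCE1 binds and blocks RNase L and is also the essential ATPase that splits ribosomes after termination.

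In the GENCODE v29 annotation of GRCh38, OAS1 (chr12:112906777-112933222), OAS3 (chr12:112938352-112973249) and OAS2 (chr12:112978395-113011723) stood in a row on the plus strand of chromosome 12. The gaps between them were 5129 and 5145 bases. OASL (chr12:121019111-121039242) lay 8007387 bases further on and was read from the minus strand. The longest annotated coding sequences were 414 codons for OAS1, 514 for OASL, 726 for OAS2 and 1087 for OAS3, so that of OAS3 was 2.63 times that of OAS1. ABCE1 (chr4:145097932-145129179, plus strand) had a longest coding sequence of 599 codons.

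The promoter windows of the RefSeq table (GRCh38.p14), 250 bases before to 50 after each gene's start, are shown because the OAS genes moved together and ABCE1 did not. That start is the one used for these windows, not the GENCODE left end given above, and positions are counted from it. Of the 5 genes, 3 matched an entry by symbol, all on the plus strand: OAS1 (chr12:112906712-112907011), OAS3 (chr12:112938224-112938523) and ABCE1 (chr4:145098061-145098360). The windows of OAS1 and OAS3 reach into the GENCODE gene, and that of ABCE1 lies wholly inside it. Capitals mark matches to a pair of GAAA blocks with 2 bases or 1 base (GAAANGAAA) of any kind between them, letters of the interferon response element known to bind ISGF3 and the interferon regulatory factors, searched on both strands.
OAS1: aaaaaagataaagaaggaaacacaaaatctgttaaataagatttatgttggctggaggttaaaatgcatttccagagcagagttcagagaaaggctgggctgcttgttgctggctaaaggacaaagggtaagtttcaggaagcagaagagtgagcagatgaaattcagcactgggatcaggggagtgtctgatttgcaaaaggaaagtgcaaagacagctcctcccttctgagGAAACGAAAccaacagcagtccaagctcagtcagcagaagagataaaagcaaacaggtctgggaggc
OAS3: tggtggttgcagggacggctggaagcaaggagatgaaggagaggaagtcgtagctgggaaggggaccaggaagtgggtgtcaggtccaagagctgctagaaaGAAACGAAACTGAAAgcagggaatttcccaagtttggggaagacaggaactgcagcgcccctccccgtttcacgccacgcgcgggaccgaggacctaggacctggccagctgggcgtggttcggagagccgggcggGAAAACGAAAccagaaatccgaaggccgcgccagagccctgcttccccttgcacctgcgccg
ABCE1: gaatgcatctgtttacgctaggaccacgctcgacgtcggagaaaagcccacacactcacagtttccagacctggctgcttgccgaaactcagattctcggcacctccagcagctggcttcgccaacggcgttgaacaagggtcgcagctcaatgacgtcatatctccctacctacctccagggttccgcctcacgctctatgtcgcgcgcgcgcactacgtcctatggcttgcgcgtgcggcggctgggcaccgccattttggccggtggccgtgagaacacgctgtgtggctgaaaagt

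The OAS1 window held GAAACGAAA, from 17 to 9 bases before the start. The OAS3 window held 3 matches. GAAACGAAA lay 148 to 140 bases before the start and overlapped GAAACTGAAA at 143 to 134, and GAAAACGAAA lay 12 to 3 bases before it. The ABCE1 window held neither spacing, which says only that these letters were not in this window. Among 35116 promoter windows of 300 bases, 6.4% held either spacing, 3.57% that of 2 bases and 3.12% that of 1 base. The spacing of 1 base was added after the sequences had been read. The OAS1 window held no match at the spacing of 2 bases, so its marked match comes only from the added spacing. TTCNNNGAA, the letters of a STAT dimer site, matched once in the OAS1 window, 168 to 160 bases before the start, and 7.66% of all windows held it. These matches are letters in a sequence and no binding was measured.

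PTBP1, the targeted gene, had 116 ± 7.58 FPKM in sh-Luci-3d, 63.9 ± 2.67 in sh-Ptbp1-3d and 50.5 ± 0.645 in sh-Ptbp1-7d (SD, n = 3), and no 2 groups overlapped. FPKM summed to 367412 to 404922 per library, and since the values carry no whole-read steps, the sequencing depth is unknown. Of 15 blood and immune cell markers, 14 had a mean under 1 FPKM, and 7, CD3E, MS4A1, FCGR3A, TYROBP, SPI1 and AIF1 among them, were listed at 0 in all 9 libraries. The summed level of the list was 10.5 to 11.6 FPKM in sh-Luci-3d, 10.98 to 11.6 in sh-Ptbp1-3d and 16.3 to 19.2 in sh-Ptbp1-7d. Without CD68, a lysosomal protein, the sums were 0.722 to 0.970, 0.696 to 0.898 and 0.774 to 1.38 FPKM. Of 9 glioma and astroglial markers, 2 fell (VIM and CD44) and 2 rose (TNC and S100B) at day 7 compared with sh-Ptbp1-3d, past the thresholds given below. Beside them, 8.31% of all genes tested rose and 5.9% fell. EGFR was lower by less than a fold change of 2, from 9.69 ± 0.488 FPKM in sh-Ptbp1-3d to 5.55 ± 1.26 in sh-Ptbp1-7d. Vimentin (VIM) was abundant, with 4088 to 4488 FPKM at day 3 and 1094 to 1249 at day 7, and tenascin C (TNC) went from 25.0 ± 1.94 FPKM in sh-Ptbp1-3d to 77.6 ± 16.5 in sh-Ptbp1-7d. The astroglial markers GFAP and S100B were low, with at most 1.15 and 0.933 FPKM in any library, and S100B went from 0.115 ± 0.0577 to 0.797 ± 0.135 FPKM. The part of these shifts in the results below was not tested, and in bulk RNA fewer cells making a transcript and less transcript per cell cannot be told apart.

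OAS1 had 22.1, 40.1 and 37.2 FPKM in sh-Luci-3d, 29.7, 34.1 and 33.2 in sh-Ptbp1-3d and 224, 224 and 226 in sh-Ptbp1-7d, in replicate order. The 3 libraries of day 7 lay together far above the 6 of day 3, which overlapped one another. The ratio of mean FPKM was 6.94 for sh-Ptbp1-7d over sh-Ptbp1-3d, with 6.55 to 7.62 over the pairs of libraries, and 6.77 over sh-Luci-3d, with 5.58 to 10.2.

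OAS2 was the lowest of the family at day 3, with 5.48, 12.1 and 7.90 FPKM in sh-Luci-3d and 6.04, 6.51 and 9.84 in sh-Ptbp1-3d. At day 7 it had 127, 139 and 132 FPKM, more than 10 times its highest library of day 3. The ratio of means was 17.8 over sh-Ptbp1-3d, with 12.9 to 23.1 over the pairs of libraries, and 15.6 over sh-Luci-3d, with 10.5 to 25.4. This was the highest ratio of the 5 genes in both comparisons.

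OAS3, whose product carries the longest chain of synthetase-like units, was the most abundant of the family at day 3. It had 41.6, 61.9 and 57.4 FPKM in sh-Luci-3d, 39.0, 41.0 and 49.95 in sh-Ptbp1-3d and 128, 119 and 111 in sh-Ptbp1-7d. The ratio of means was 2.75 over sh-Ptbp1-3d, with 2.23 to 3.28, and 2.22 over sh-Luci-3d, with 1.80 to 3.07. The day 7 libraries did not overlap those of day 3, but the distance was the shortest among the OAS genes.

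OASL had 7.75, 15.5 and 11.7 FPKM in sh-Luci-3d, 10.1, 10.6 and 11.2 in sh-Ptbp1-3d and 93.9, 94.3 and 96.1 in sh-Ptbp1-7d. As for OAS1, the libraries of day 7 were close together and apart from all others. The ratio of means was 8.93 over sh-Ptbp1-3d, with 8.40 to 9.55 over the pairs of libraries, and 8.14 over sh-Luci-3d, with 6.05 to 12.4. For day 7 over sh-Ptbp1-3d the ranges of the pairwise ratios did not overlap between any 2 of the OAS genes, whereas over sh-Luci-3d that of OASL overlapped those of OAS1 and OAS2.

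ABCE1, the inhibitor, had 18.0, 19.1 and 13.5 FPKM in sh-Luci-3d, 17.7, 16.7 and 16.3 in sh-Ptbp1-3d and 15.1, 15.2 and 14.3 in sh-Ptbp1-7d. All day 7 libraries lay just below those of sh-Ptbp1-3d, and they fell within the range of sh-Luci-3d, whose replicate 3 was the lowest of all 9. The ratio of means was 0.880 over sh-Ptbp1-3d, with 0.809 to 0.932, and 0.882 over sh-Luci-3d, with 0.748 to 1.13.

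**Figure D1:**
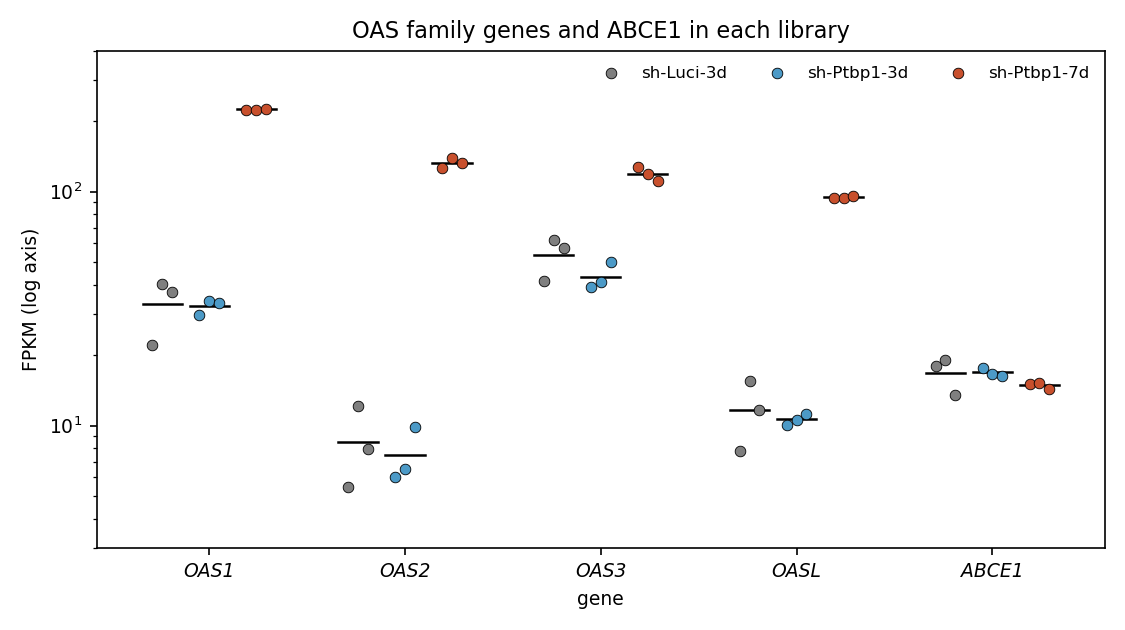
FPKM of OAS1, OAS2, OAS3, OASL and ABCE1 in each of the 9 libraries, on a log axis, with points for libraries and bars for the group mean (n = 3). The 4 OAS genes are higher in all sh-Ptbp1-7d libraries than in any library of day 3, while ABCE1 stays between 13.5 and 19.1 FPKM.

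Differences between groups were fitted with limma for all 15551 genes that passed the filter, on the log2(FPKM + 0.1) scale, which understates the change of low genes. The log2 differences, sh-Ptbp1-7d minus sh-Ptbp1-3d, were 2.79 for OAS1 (SE 0.180), 4.17 for OAS2 (SE 0.250), 1.47 for OAS3 (SE 0.145), 3.15 for OASL (SE 0.191) and -0.18 for ABCE1 (SE 0.120). Thresholds were a change of more than 2 times and a false discovery rate (FDR) under 0.01, and 4 of the 5 genes were past the thresholds, all higher, beside 8.31% of all genes tested that were higher. Since the genes were chosen with this contrast known, nothing is read from that count. From the highest of the 15551 differences downwards, OAS2 ranked 34, OASL 99, OAS1 132, OAS3 788 and ABCE1 10409. Groups that did not overlap were common in this contrast, at 62.3% of all genes tested, with 35.3% higher and 27.0% lower in every day 7 library.

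Against sh-Luci-3d, the log2 differences of sh-Ptbp1-7d were 2.80 for OAS1, 4.02 for OAS2, 1.17 for OAS3, 3.07 for OASL and -0.16 for ABCE1. The 4 OAS genes were past the same thresholds, beside 8.93% of all genes tested that were higher. In this contrast 55.9% of all genes had groups that did not overlap, 32.8% of them higher and 23.1% lower as shares of all genes. Without sh-Luci-3d replicate 1, OAS3 had a log2 difference of 0.997, under a fold change of 2, so that 3 genes were past the thresholds. Both day 7 comparisons use the same sh-Ptbp1-7d libraries.

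At day 3 the groups overlapped for all 5 genes, and 10.8% of all genes tested had groups that did not overlap (5.86% higher and 4.93% lower). The log2 differences of sh-Ptbp1-3d against sh-Luci-3d were 0.0088 for OAS1, -0.14 for OAS2, -0.30 for OAS3, -0.078 for OASL and 0.019 for ABCE1. With limma, 0 of the 5 genes passed a change of more than 2 times at an FDR under 0.05, beside 0.0129% of all genes tested, which is 2 genes, while 1126 had an unadjusted p below 0.05. PTBP1, the targeted gene, was not past these thresholds either, since its log2 difference of -0.85 was under a fold change of 2. The sign of the difference of OAS1, OAS2 and OASL depended on which sh-Luci-3d library was kept: without replicate 1 it was -0.26, -0.42 and -0.34, and without replicate 2 it was 0.17, 0.14 and 0.16.

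Within sh-Luci-3d the OAS genes moved together, with the lowest value of each in replicate 1 and the highest in replicate 2. Of 11340 genes whose mean was 1 FPKM or more, 21.8% were lowest in replicate 1 and 28.6% highest in replicate 2. The coefficient of variation of OAS1 was 29.1% in sh-Luci-3d, 7.24% in sh-Ptbp1-3d and 0.616% in sh-Ptbp1-7d. For OAS2 it was 39.3%, 27.7% and 4.8%, and for OASL 33.4%, 5.22% and 1.26%. For OAS3 it was 19.9%, 13.4% and 6.89%, so each OAS gene varied most between libraries in sh-Luci-3d and least in sh-Ptbp1-7d. This order was not particular to them. Among genes described below, IFIH1 (24.2%, 12.8% and 3.41%) and PELO (11.8%, 7.13% and 4.42%) had it too, while EIF2AK2 (23.1%, 4.29% and 8.75%) did not. The share of all genes with this order was not counted, so nothing is read from it.

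FPKM is a value per length, so levels of the family can be ordered. In all 6 libraries of day 3 the order was OAS3, OAS1, OASL and OAS2 from high to low. At day 7 OAS1 was the highest and OASL the lowest in every library, and OAS2 and OAS3 between them did not differ beyond their spread, since OAS3 was the higher in replicate 1 and OAS2 in replicates 2 and 3. Among the 19932 gene symbols ranked by mean FPKM, OAS1 moved from 1959 in sh-Luci-3d and 2039 in sh-Ptbp1-3d to 190 in sh-Ptbp1-7d, and OAS2 from 6229 and 6655 to 346. ABCE1 ranked 3830, 3851 and 4389.

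The summed level of the 4 OAS genes was 107 ± 27.1 FPKM in sh-Luci-3d, 93.8 ± 9.79 in sh-Ptbp1-3d and 571 ± 5.15 in sh-Ptbp1-7d (SD, n = 3). OAS3 made up 50.7% ± 3.15 of the sum in sh-Luci-3d and 46.1% ± 1.73 in sh-Ptbp1-3d, and 20.9% ± 1.34 in sh-Ptbp1-7d. OAS2 went the other way, with 7.79% ± 1.33, 7.87% ± 1.36 and 23.2% ± 1.04. OAS1 held 30.8% ± 1.92, 34.6% ± 2.56 and 39.3% ± 0.594, and OASL 10.7% ± 1.06, 11.4% ± 0.580 and 16.6% ± 0.344. For each of the 4 shares the libraries of day 7 did not overlap those of day 3, and the groups of day 3 overlapped each other.

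Of the 478 FPKM by which the summed mean of day 7 exceeded that of sh-Ptbp1-3d, OAS1 gave 192, OAS2 125, OASL 84.2 and OAS3 76.0. OAS3, the most abundant at day 3, therefore gave the smallest part. The ratio of OAS2 to OAS3 was 0.155 in sh-Luci-3d, 0.170 in sh-Ptbp1-3d and 1.12 in sh-Ptbp1-7d. The summed OAS level divided by that of ABCE1 was 6.52 ± 2.11, 5.58 ± 0.794 and 38.5 ± 0.987. These ratios are of RNA levels, and neither protein nor oligoadenylates were measured.

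**Figure D2:**
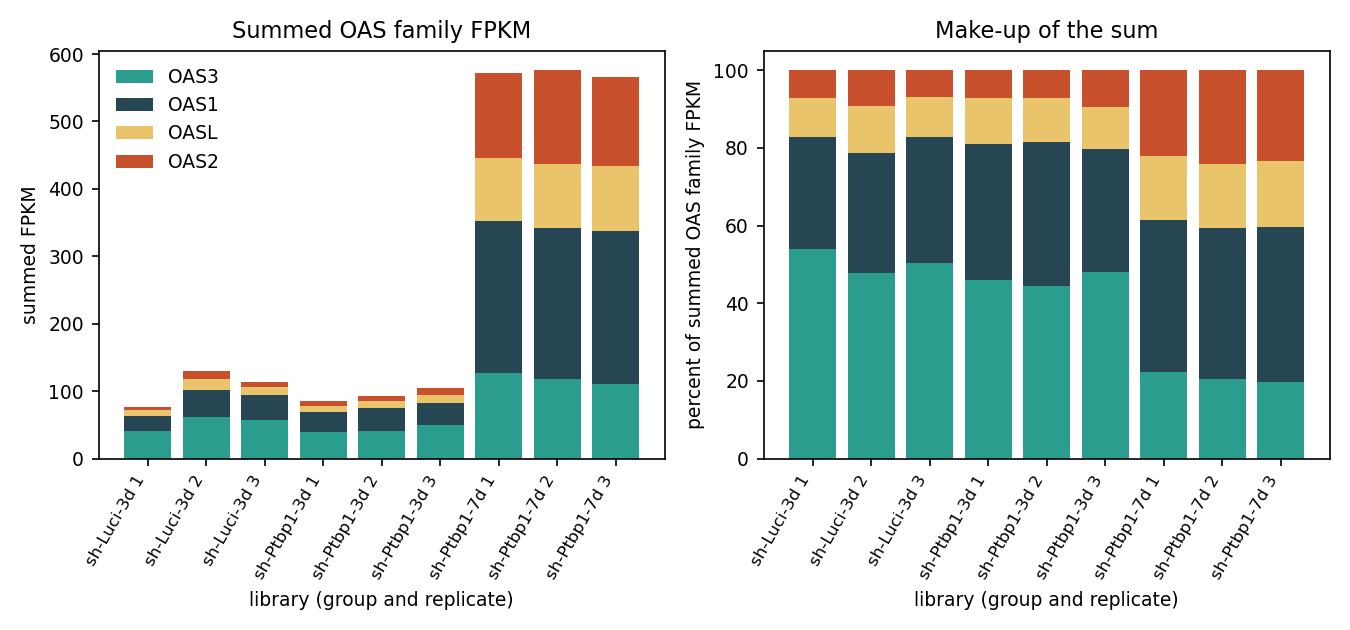
Summed FPKM of the 4 OAS genes in each library (stacked bars from 0) and the percent of that sum held by each gene. The sum lies near 571 FPKM for each library of day 7 and is at most 129.65 for those of day 3, and the share of OAS3 is 20.9% against 50.7% in sh-Luci-3d.

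The pathway around these genes was described with 44 listed genes, of which 42 passed the filter. The lists were chosen with earlier results of these data known. Their counts, medians and p-values, here and below, are therefore a description and no independent support. At day 7 compared with sh-Ptbp1-3d, 10 of the 42 rose and 0 fell past both thresholds, another 6 were higher and 7 lower with an FDR below 0.01 but a fold change of 2 or less, and 19 passed neither. Beside this, 8.31% of all genes tested rose and 5.9% fell past both thresholds. ZBP1 and IFNB1, counted as rising in both day 7 comparisons, passed the filter on low values only through sh-Ptbp1-7d, where they were high. With a filter of at least 1 FPKM, 8 of 39 listed genes rose compared with sh-Ptbp1-3d. The share of all genes with an FDR below 0.01 alone was not counted. The median log2 difference of the 42 was 0.20, and that of all genes 0.092. Against sh-Luci-3d, 8 rose, 1 fell and 20 passed neither, with a median of 0.14 beside 0.099 for all genes, and of all genes 8.93% rose and 5.68% fell. At day 3, 0 of the 42 passed the thresholds, beside 0.0129% of all genes tested. With limma, 5 of the 42 had an unadjusted p below 0.05, beside 1126 of all 15551 genes tested.

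Of 3 genes listed for the oligoadenylate effector and its control, AKAP7, whose product includes a domain able to degrade oligoadenylates, had 1.003, 1.16 and 0.771 FPKM in sh-Ptbp1-3d and 2.37, 1.90 and 2.89 in sh-Ptbp1-7d. The groups did not overlap, and AKAP7 rose by 1.2 on the log2 scale (SE 0.212, adjusted p = 0.00083, limma with Benjamini-Hochberg adjustment as for all p-values below). Against sh-Luci-3d, with 1.73, 1.19 and 1.31 FPKM, it was 0.72 higher and did not pass (adjusted p = 0.0164). PDE12, a phosphodiesterase that degrades oligoadenylates, had 6.51, 5.75 and 5.17 FPKM in sh-Ptbp1-3d and 4.90, 4.44 and 4.26 in sh-Ptbp1-7d. Its groups did not overlap either, but the log2 difference of -0.35 (SE 0.116) had an adjusted p of 0.0282 and did not pass.

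Among 12 other sensors of double-stranded RNA and genes acting with them, 5 rose and 0 fell past both thresholds at day 7 compared with sh-Ptbp1-3d, beside 8.31% and 5.9% of all genes tested. IFIH1, the sensor MDA5 of long double-stranded RNA, had 24.9, 36.6 and 24.4 FPKM in sh-Luci-3d, 22.0, 21.8 and 27.1 in sh-Ptbp1-3d and 134, 135 and 127 in sh-Ptbp1-7d. It rose by 2.48 on the log2 scale (SE 0.148, adjusted p = 3.49e-07), with every day 7 library above all others. RIGI, the sensor RIG-I on which OASL acts and listed under the older symbol DDX58, rose by 1.74 (SE 0.148, adjusted p = 4.43e-06), from 51.1 ± 4.30 to 171 ± 9.99 FPKM. TLR3, the endosomal sensor, rose by 2.68 (SE 0.164, adjusted p = 4.08e-07) and DHX58, the regulator LGP2, by 1.46 (SE 0.203, adjusted p = 0.000162). ZBP1, a sensor of left-handed double-stranded RNA, went from 0.0218 ± 0.0225 FPKM in sh-Ptbp1-3d to 0.861 ± 0.293 in sh-Ptbp1-7d. The log2 difference was 2.95 (SE 0.326) at a mean level under 1 FPKM in both groups, and the mean in sh-Luci-3d was 0.0478. Since ZBP1 passed the filter on low values only through sh-Ptbp1-7d, this is a description without a test. With a pseudocount of 1 in place of 0.1, neither ZBP1 nor AKAP7 passed.

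EIF2AK2, the kinase PKR, which also stops translation when it binds double-stranded RNA, stood apart from these sensors by its values. It had 26.2, 32.3 and 20.2 FPKM in sh-Luci-3d, 21.6, 23.1 and 23.4 in sh-Ptbp1-3d and 28.4, 25.9 and 23.8 in sh-Ptbp1-7d. The day 7 values lay within the range of sh-Luci-3d and just above that of sh-Ptbp1-3d, and the log2 difference of 0.20 (SE 0.145) did not pass (adjusted p = 0.288). ADAR, which edits double-stranded RNA, was 0.71 higher with an adjusted p of 0.000114, under a fold change of 2.

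MAVS, the mitochondrial adaptor through which IFIH1 and RIGI signal, moved the other way. It had 13.8, 14.1 and 13.8 FPKM in sh-Luci-3d, 13.9, 13.3 and 11.7 in sh-Ptbp1-3d and 7.74, 6.65 and 5.95 in sh-Ptbp1-7d, with no overlap between days. The log2 difference was -0.93 against sh-Ptbp1-3d (SE 0.109, adjusted p = 4.98e-05), under a fold change of 2, and -1.03 against sh-Luci-3d (adjusted p = 2.3e-05), past both thresholds. The second is close to the threshold and was not past it without sh-Ptbp1-7d replicate 3, and the first was past it without sh-Ptbp1-7d replicate 1. STING1, the adaptor of the DNA sensor CGAS, which makes a cyclic dinucleotide by a fold shared with the OAS enzymes, was 0.79 higher (adjusted p = 0.000713), and CGAS itself fell under the filter.

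Of 13 genes for interferon ligands, receptors, their kinases and the response factors, 12 were tested, and 4 rose and 0 fell at day 7 compared with sh-Ptbp1-3d, beside 8.31% and 5.9% of all genes tested. IFNB1, the interferon beta ligand, was listed at 0 in the 3 sh-Luci-3d libraries and at 0, 0.12 and 0 FPKM in sh-Ptbp1-3d. It had 0.57, 0.29 and 0.76 FPKM in sh-Ptbp1-7d, a low level at which no fold is given. IFNB1 too passed the filter on low values only through sh-Ptbp1-7d, so this is a description without a test. It was not past the thresholds with a pseudocount of 1 or 0.01. STAT2 rose by 1.5 (SE 0.0871, adjusted p = 2.96e-07), from 39.1 ± 2.01 to 111 ± 6.76 FPKM. IRF9, the DNA-binding subunit of ISGF3, was 0.86 higher (adjusted p = 0.00084), under a fold change of 2. IRF1, a factor that binds the same kind of element, rose by 1.93 (SE 0.133, adjusted p = 9.81e-07).

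None of the receptor chains and kinases tested passed both thresholds. IFNAR1 and IFNAR2, the chains of the type I receptor, were each 0.29 higher and did not pass (adjusted p = 0.0721 and 0.173). TYK2, a kinase of that receptor, was 0.15 higher (adjusted p = 0.266), and JAK1, its partner, was 0.59 lower on the log2 scale, a difference of -0.59 with an adjusted p of 0.000573 but under a fold change of 2. Of the factors, IRF3 and IRF7 did not pass either, with differences of 0.12 (adjusted p = 0.52) and 0.25 (adjusted p = 0.684).

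Of the 44 listed genes, 32 were in the promoter table, and 5 of these windows held a pair of GAAA blocks at either spacing, beside 6.4% of all windows: those of EIF2AK2, IFIH1, RIGI, TLR3 and IFNL1. Of these genes IFIH1, RIGI and TLR3 rose, EIF2AK2 did not pass the test, and IFNL1 fell under the filter. AKAP7, IFNB1, STAT2 and IRF1, whose windows held neither spacing, also rose. The window of RIGI matched only at the spacing of 1 base, the one added after sequences had been read. Nothing is therefore read from the count of windows with either spacing.

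ABCE1 acts on ribosomes with release, rescue and recycling factors, 14 of which were listed. At day 7 compared with sh-Ptbp1-3d, 0 of the 14 passed both thresholds in limma, beside 8.31% of all genes tested that rose and 5.9% that fell. An unadjusted p below 0.05 was found for 6 of the 14, beside 8751 of all 15551 genes tested. With an FDR below 0.01 alone, 4 were lower and 1 was higher. The share of all genes in that class was not counted, so nothing is read from these counts. ETF1, the release factor that ABCE1 binds at stop codons, was lower at -0.26 on the log2 scale (adjusted p = 0.00939), and GSPT1, its GTPase partner, at -0.40 (adjusted p = 0.000904). HBS1L, the GTPase of ribosome rescue, was at -0.75 (adjusted p = 0.00554), whereas PELO, which pairs with it, was at 0.032 (adjusted p = 0.823). Against sh-Luci-3d, HBS1L was at -0.32 with groups that overlapped and did not pass (adjusted p = 0.165). Its means were 9.15 FPKM in sh-Luci-3d, 12.2 in sh-Ptbp1-3d and 7.16 in sh-Ptbp1-7d. DENR, a factor that removes transfer RNA from the small subunit, was at -0.45 (adjusted p = 0.00267), and YAE1, needed to mature ABCE1, at 0.56 (adjusted p = 0.000633). The median of the 14 was -0.078 beside 0.092 for all genes, and the difference of ABCE1 itself was -0.18.

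**Figure D3:**
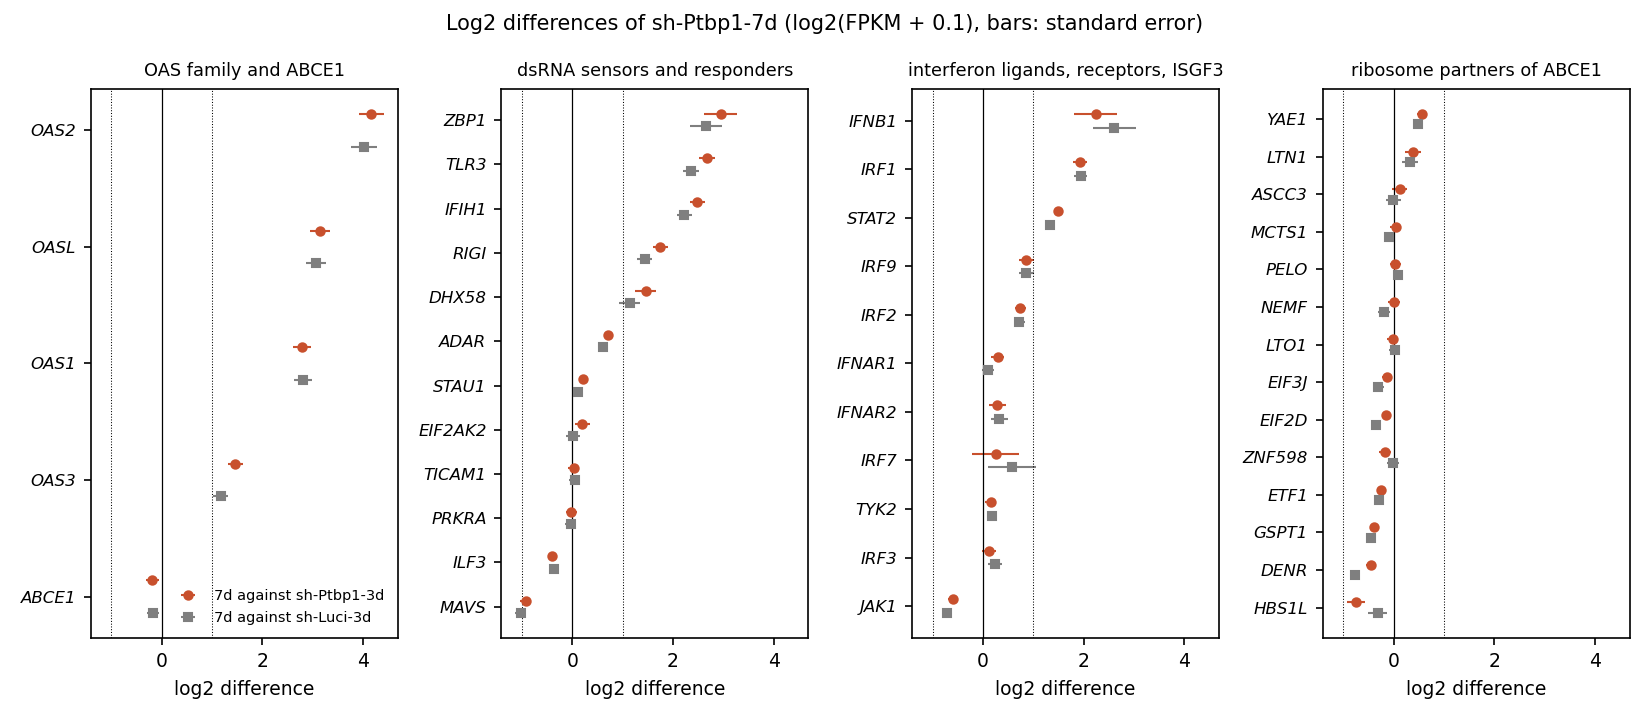
Log2 differences of day 7 from sh-Ptbp1-3d (circles) and from sh-Luci-3d (squares), on the log2(FPKM + 0.1) scale, with bars for the standard error and dotted lines at a fold change of 2. The OAS genes, IFIH1 (2.48), TLR3 (2.68) and STAT2 (1.5) lie to the right of the line, MAVS (-0.93) is close to the left line, and ABCE1 (-0.18) and its ribosome partners lie between the lines.

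The measured genes closest to the OAS cluster on chromosome 12 were at or near 0 FPKM. RPH3A, 7.90 kb before OAS1, had a mean of at most 0.0030 FPKM in any group, DTX1, 45 kb after OAS2, at most 0.0519, and RASAL1, 87.1 kb after it, was listed at 0 in all libraries. Of the 6 nearest measured genes with a symbol around the cluster, 3 were tested, and 0 rose while 2 fell at day 7 compared with sh-Ptbp1-3d. The 2 that fell lay 397 and 488 kb before OAS1, and the other gene tested lay 138 kb after OAS2. Near OASL, SPPL3, 115 kb away, was 0.42 higher (adjusted p = 0.00193), under a fold change of 2, and P2RX4, 171 kb away, rose by 1.28 (SE 0.104), from 5.85 ± 0.572 to 14.3 ± 0.729 FPKM. Of the 20 neighbours of all 5 genes, 14 were tested, 2 rose and 2 fell, beside 8.31% of all genes tested that rose and 5.9% that fell. No assembled locus of the study lay within 50 kb of any of the 5 genes.

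A noncoding gene on the opposite strand, AC004551.1, spans OAS1, OAS3 and OAS2 and was not among the entries used here. The counting is not stated to use strand, so reads of both cannot be told apart. OTUD4, on the opposite strand of ABCE1, overlaps it by 18342 bases. OTUD4 had 8.75 ± 0.561 FPKM in sh-Ptbp1-3d and 14.2 ± 2.51 in sh-Ptbp1-7d, 0.68 higher on the log2 scale (adjusted p = 0.00553). The same difference for ABCE1 was -0.18, not past the thresholds, and its day 7 libraries lay within the range of sh-Luci-3d.

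Over the 9 libraries, among 11339 genes whose mean was 1 FPKM or more, the gene most like OAS1 on the log2 scale was OASL (Pearson r = 0.998), followed by PML, PSME2, TAP1 and LAP3. OAS2 was most like GBP1 (r = 0.999), IRF1, RSAD2, TRIM22 and MOB3C. OAS3 had other nearest genes, HERC5 (r = 0.996), HERC6, MX1 and TRIM14 among them, and OASL had OAS1, NMI, PML, OAS2 and WARS1. The OAS genes were far higher at day 7, and r within day 3 alone was not computed. The part of each day in these correlations was therefore not tested. An r above 0.95 was found for 908 genes with OAS1, 857 with OAS2, 902 with OASL and 237 with OAS3. For ABCE1 the count was 13, with OSGIN2 the most similar (r = 0.981).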

How the data were processed

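RNA-seq of total RNA was made in 9 libraries of U251 cells, 3 for each of the groups, which follow the labels. For every gene the authors deposited its FPKM in each library, a normalized unit without counts, made from filtered reads compared with a reference. The submitters' processing notes name HISAT2 and GRCh38. Versions, annotation, strand setting and depth are not given in the sources used here. The deposited coordinates of assembled exons, of which 49.6% equal a GENCODE v29 exon, served to check the build.

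Of all entries, 15551 had a mean of 0.1 FPKM or more and entered limma 3.58.1 (R 4.3.3) as log2(FPKM + 0.1). A single model of the groups held all 9 libraries, with a mean-dependent prior variance and Benjamini-Hochberg adjustment over all genes tested. In data simulated for the same 15551 genes with normal noise, 200 genes were changed by 2 on the log2 scale. For day 7 compared with sh-Ptbp1-3d, 191 of them were recovered, with 1 false call. The changed genes had a mean of at least 1 FPKM, so the recovery of lower genes was not tested. The labels do not say whether libraries with the same replicate number were paired, and the main model did not pair them. Figures were drawn with matplotlib 3.10.9. Genes named were the 5 described, those of the fixed pathway and marker lists, the nearest measured neighbours, the genes of highest correlation and PTBP1. The genes and lists were chosen with earlier results of these data known. The gene of RNase L itself and a few other genes that these rules name are not reported here, although counts of listed genes, markers and neighbours include them.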

Additional observations from a re-analysis of the deposited data

How the results depend on the processing

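The log2 differences of the 5 genes were recomputed under 18 alternatives: 2 other pseudocounts, 2 other filters, 3 other scalings, the groups compared alone, a replicate block and each library left out. For day 7 compared with sh-Ptbp1-3d they ranged from 2.73 to 2.92 for OAS1, 4.01 to 4.38 for OAS2, 1.39 to 1.57 for OAS3, 3.04 to 3.25 for OASL and -0.25 to -0.082 for ABCE1. Against sh-Luci-3d the ranges were 2.54 to 2.96, 3.75 to 4.31, 0.997 to 1.28, 2.81 to 3.30 and -0.32 to -0.067. At day 7, 4 of the 5 genes were past the thresholds in every alternative, except 3 against sh-Luci-3d without sh-Luci-3d replicate 1, where OAS3 was missing. Of the listed pathway genes, 5 instead of 9 passed against sh-Luci-3d with a pseudocount of 1, which shrinks the differences of low genes. With libraries left out the count was 8 to 10, and against sh-Ptbp1-3d it was 10 to 11, beside 7 with a pseudocount of 1. DHX58 did not pass against sh-Luci-3d with a pseudocount of 1, with quantile normalization or without sh-Luci-3d replicate 1. AKAP7, IFNB1 and ZBP1 did not pass with a pseudocount of 1. MAVS did not pass against sh-Luci-3d with TPM or a pseudocount of 1. With the replicate block the listed counts were 10 (day 7 from sh-Ptbp1-3d), 9 (day 7 from sh-Luci-3d) and 0 at day 3, the counts without it. Deviations of libraries with the same number correlated between -0.032 and 0.051.

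Over all genes, day 7 compared with sh-Ptbp1-3d gave 2211 calls, and 1255 with a pseudocount of 1. Against sh-Luci-3d it gave 2271, and 1269 with a pseudocount of 1. At day 3 it was 2, and 59 without sh-Luci-3d replicate 3. The median of all genes against sh-Ptbp1-3d was 0.092, 0.19 with TPM and -0.010 with quantile normalization, under which 1077 of 2191 calls against sh-Luci-3d were higher, in place of 1388 of 2271. The unknown depth limits what can be said of genes near 0 FPKM, such as IFNB1 and ZBP1.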
